A study of Canis lupus familiaris with 14 samples.

Results

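This report describes 27 genes that were expressed across the sample set and had counts in the bone of every dog, but gave 0 counts in the tumor of at least 1 dog. They were chosen from the measured values: a median of 7 or more CPM (the count of a gene divided by the total of its library and multiplied by 1000000) over all 14 libraries, at least 1 count in each of 7 bones, and 0 counts in 1 or more of 7 tumors. The table holds 30951 genes, of which 10112 reached the median of 7 CPM, so the 27 genes were 0.267% of the expressed genes. Because the counts themselves chose the genes, their presence in bone and their absence from a tumor are given as a description, with no test.

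Polyadenylated RNA was sequenced from osteosarcoma, a malignant tumor of bone, and from the second phalanx of the same amputated limb in 7 dogs, A to G, before any chemotherapy. The breeds were Golden Retriever (dogs A and F), Rottweiler (dog B), Doberman Pinscher (dog C), Greyhound (dogs D and G) and Great Pyranees (dog E). Tumors were in the distal radius of dogs A, C, E and F, the distal femur of dog B, the proximal humerus of dog D and the distal tibia of dog G. Each tissue of each dog gave 1 library, and bone and tumor RNA were extracted by different methods, so tissue and extraction method cannot be told apart. The study describes its bone as freed of marrow and of cells lying outside the mineralized matrix; fat and nerve cells lie outside that matrix.

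Osteosarcoma arises from cells of the bone-forming lineage and is known for many rearranged and unevenly copied chromosomes, which differ from tumor to tumor. Bone tissue itself holds osteocytes, osteoblasts, osteoclasts, fat cells, vessels and nerve fibres. In bulk samples such as these, fewer cells of a type and less RNA per cell cannot be told apart. A table of RNA counts lists a gene at 0 when no read was assigned to its gene model, and it carries no measure of DNA copy number, so deletion of the genes was not tested.

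Bone libraries held 22564544 to 34479429 counts and tumor libraries 18650945 to 32887213, and 6 of the 7 dogs had more counts in bone. A count of 0 allows up to 3 counts, which were 0.0912 CPM in the deepest tumor library (dog E) and 0.161 CPM in the shallowest (dog C); these limits cover counting error only. Marker genes whose names could be paired with identifiers are given beside the tissue labels. Names were paired mainly for genes the study called between these same tissues, so the values are no independent check of the labels. The summed osteocyte markers (SOST, DMP1, PHEX and MEPE, 4 of 4 paired) lay between 274 and 4841 CPM in bone and between 2.64 and 562 CPM in tumor. The 2 of 8 paired osteoblast markers, BGLAP and SPP1, summed to between 2059 and 4633 CPM in bone and between 142 and 1141 CPM in tumor, and no paired marker of bone-forming cells or osteocytes was at 0 in any tumor.

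The 27 genes were absent from tumors in 39 instances. Of the genes, 18 were absent from 1 tumor, 6 from 2 tumors and 3 from 3 tumors, and no gene was absent from more than 3. The tumor of dog F lacked 8 of the genes, those of dogs A and C lacked 7 each, that of dog G 6, that of dog B 5, that of dog D 4 and that of dog E 2. The tumor of dog F, with the most absences, had 29118261 counts, the median of the tumors. The study also gives an RNA integrity number, a score of how intact the RNA was. Among tumors it was highest in dog F and lowest in dog A, and among bones lowest in dog B. The part of RNA integrity in the absences was not tested. Over all expressed genes, including those that some bone also lacked, the tumor of dog F again had the most genes at 0, with 18, but that of dog E had 15, as many as those of dogs A and B, and that of dog D the fewest, with 11.

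**Figure D1:**
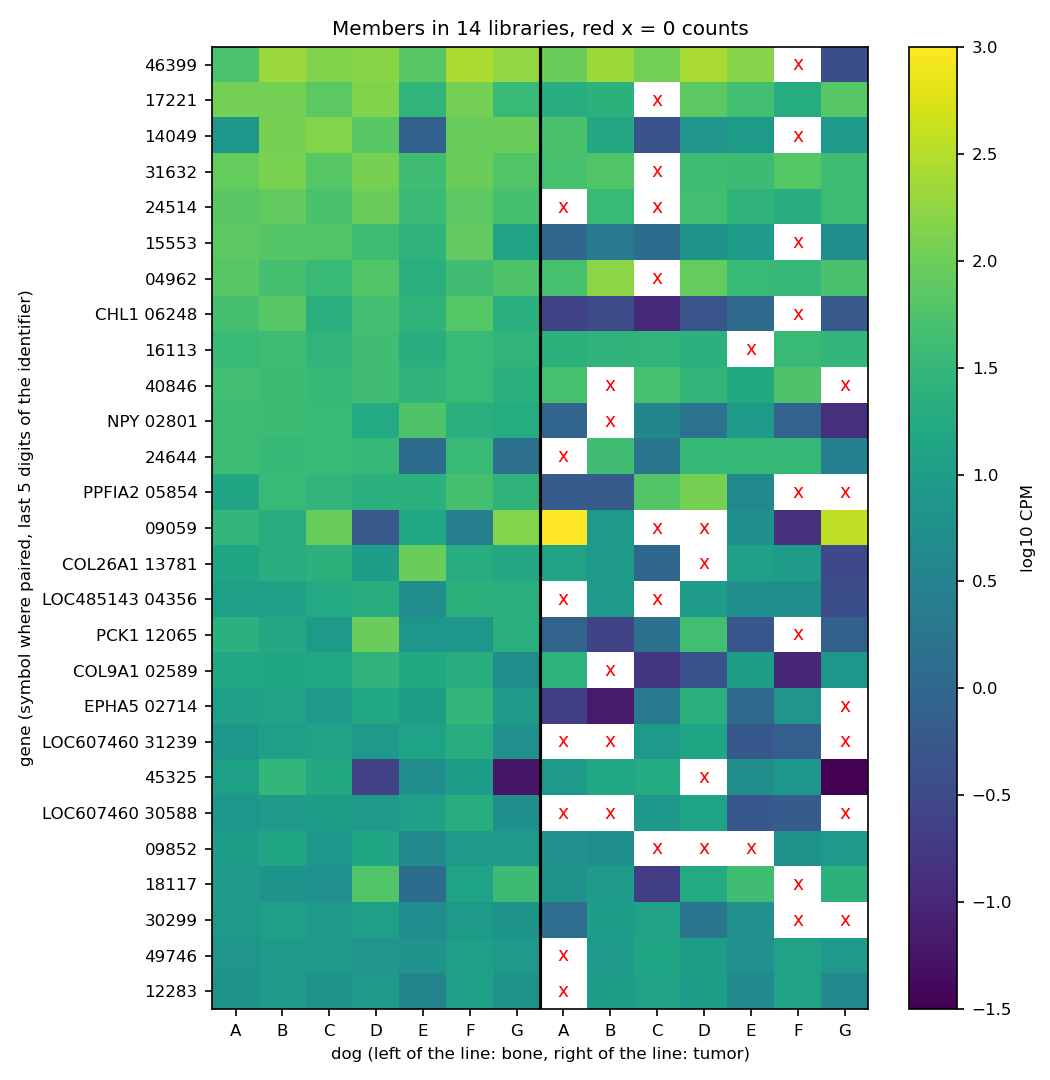
Heatmap of the 27 genes (rows, ordered by median bone CPM, highest at the top) in 14 libraries (columns, bone to the left and tumor to the right of the line), with colour for log10 CPM and a red x for 0 counts. The 39 crosses lie on the tumor side, as the choice of genes requires, with 8 in dog F and 2 in dog E.

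Within the 27 genes, most pairs of tumors had no absent gene in common. Of the 21 pairs of tumors, 13 shared none of them, 2 shared 1, 5 shared 2 and 1 shared 3. The pair that shared 3 was dogs B and G, and 2 of its 3 genes were the rows of a single symbol, LOC607460. Tumors of dogs A and C both lacked ENSCAFG00000024514 and LOC485143, tumors of dogs C and D both lacked ENSCAFG00000009059 and ENSCAFG00000009852, and tumors of dogs F and G both lacked PPFIA2 and ENSCAFG00000030299. This holds for the chosen genes only, since genes that some bone lacked were left out: over all expressed genes, each of the 21 pairs shared between 1 and 8 genes at 0 counts. The tumors of the Golden Retrievers (dogs A and F) shared 1 such gene and those of the Greyhounds (dogs D and G) shared 3, with 0 of the 27 genes in either case, although ENSCAFG00000045325 had 0 and 1 counts in the tumors of dogs D and G.

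**Figure D2:**
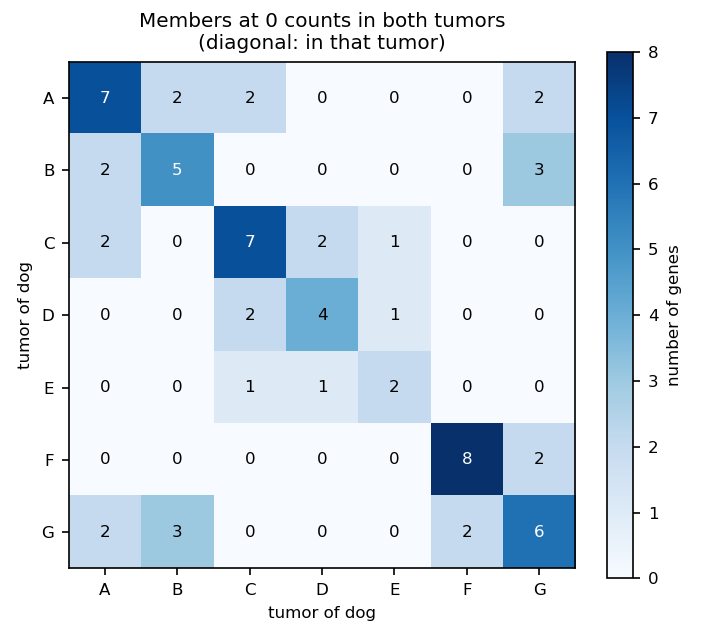
Number of genes at 0 counts in both tumors of a pair, with the number absent from each tumor on the diagonal; both axes list the tumors of dogs A to G. Within the 27 genes, 13 of the 21 pairs are at 0 and the highest is 3, for dogs B and G.

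The bones of the affected dogs mostly held the genes at the usual bone level. The choice of genes required counts in every bone, so genes that the bone of the same dog also lacked were left out in advance. The values below describe the chosen genes only. In 35 of the 39 instances, the bone of the dog whose tumor lacked the gene had at least 0.5 times the median CPM of the other 6 bones, and the median of this ratio was 0.823. In 2 instances it was under 0.1 times, both in dog D, for ENSCAFG00000009059 and ENSCAFG00000045325. Set against 3 counts per tumor library, the tumors were at least 2.08-fold lower to at least 2743-fold lower than the paired bone, with a median of at least 123-fold. At the CPM of its own bone, each tumor with 0 counts would have held a median of 370 counts.

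The genes differed in how the remaining tumors expressed them. In 13 genes the median of the tumors with counts was 0.5 times the bone median or more, in 9 it was between 0.1 and 0.5 times, and in 5 it was under 0.1 times. The 13 genes near the bone level had no symbol in the tables used here. Of the 9 intermediate rows 7 had one, and of the 5 low ones 3. Symbols were paired with 2292 identifiers, against 30951 genes in the table, and mainly for genes the study called. Rows near the bone level were therefore unlikely to have a symbol, and nothing is read from this split. In all, 10 of the 27 rows could be paired with 9 symbols, and the other 17 are given by identifier. Of these 17, 1 was listed by the study without a symbol.

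CHL1 (ENSCAFG00000006248), a cell adhesion molecule of the L1 family known from nerve and glial cells, was the gene with the lowest tumor level relative to bone. Bone held between 22.4 CPM in dog C and 67.8 CPM in dog B, with a median of 45.5 CPM. Tumor counts, in the order of dogs A to G, were 6, 10, 2, 12, 37, 0 and 18. All 7 tumors lay below the lowest bone, so the 0 in dog F was the low end of a gene that was low in every tumor. At the CPM of the next lowest tumor, the library of dog F would have held 3.12 counts, which is next to the 3 counts that a 0 allows.

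NPY (ENSCAFG00000002801), neuropeptide Y, a signalling peptide of sympathetic nerves, had the same form. Bone ranged from 18.1 to 56.8 CPM (median 33.7). From dog A to dog G, the tumors had 21, 0, 68, 41, 322, 24 and 4 counts, each below the lowest bone on the CPM scale. The tumor of dog E, at 9.79 CPM, was the highest tumor, and its bone, at 56.8 CPM, was also the highest bone.

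EPHA5 (ENSCAFG00000002714), a receptor tyrosine kinase that binds ephrins on neighbouring cells, held 8.43 to 29.7 CPM in bone (median 11.7). Counts in the tumors of dogs A to G were 5, 2, 41, 609, 37, 207 and 0. The tumor of dog D (23.9 CPM) thus lay within the range of bone and the other 6 below it. Set against the 2 counts of dog B, the 0 of dog G was not a detectable difference, since 2.11 counts would have been reached at that level.

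PPFIA2 (ENSCAFG00000005854), liprin alpha 2, a scaffold protein of synapses, spanned the widest range among the 4 genes known from the nervous system. Bone lay between 14.5 and 46.9 CPM (median 26.8). The tumors of dogs A to E held 0.653, 0.604, 63.2, 119 and 4.5 CPM, and those of dogs F and G 0. The tumors of dogs C and D exceeded every bone, while 2 tumors had no count. At the lowest level among the tumors with counts, 17.6 counts in dog F and 19 in dog G would have been reached.

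Markers of Schwann cells, the glia that wrap peripheral nerve, are given beside these genes. SOX10, a transcription factor of glia, held 1.86 to 12.9 CPM in bone and 0 to 2.35 CPM in tumor, with 0 counts in the tumor of dog C. S100B, a calcium-binding protein of glia, held 2.15 to 33.9 CPM in bone and 0.707 to 2.37 CPM in tumor, and PMP22, a protein of peripheral myelin, 28.3 to 91.6 CPM and 7.74 to 46.8 CPM. Bone and tumor ranges overlapped for all 3 markers. S100B and PMP22 were lowest in the tumor of dog D, which had the highest PPFIA2 and EPHA5 among tumors. The part of these cells in the 4 genes was not tested.

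COL26A1 (ENSCAFG00000013781), a collagen chain of the extracellular matrix, was absent from the tumor of dog D. Bone held 10.4 to 24.3 CPM in 6 dogs and 96.6 CPM in dog E, with a median of 20.2 CPM over all 7. Tumors of dogs A, B, E and F lay between 8.86 and 12.1 CPM, that of dog C held 1.02 CPM and that of dog G 0.318 CPM. The bone of dog D was also the lowest bone, at 10.4 CPM. Tumor values therefore fell into 4 near the low end of bone and 3 far below it.

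COL9A1 (ENSCAFG00000002589), a chain of collagen IX, which decorates the fibrils of cartilage, was absent from the tumor of dog B. Bone ranged from 5.41 to 26.4 CPM (median 15.3). The 7 tumors, from dog A to dog G, had 579, 0, 3, 11, 341, 3 and 244 counts. At the level of dog F, 3.07 counts would have been reached in dog B, so the 0 there was close to the 3 counts of dogs C and F. Tumors of dogs A, E and G, between 7.75 and 25.2 CPM, were within the range of bone. None of the 6 cartilage and tendon markers of the list could be paired with an identifier, so their level is not given.

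**Figure D3:**
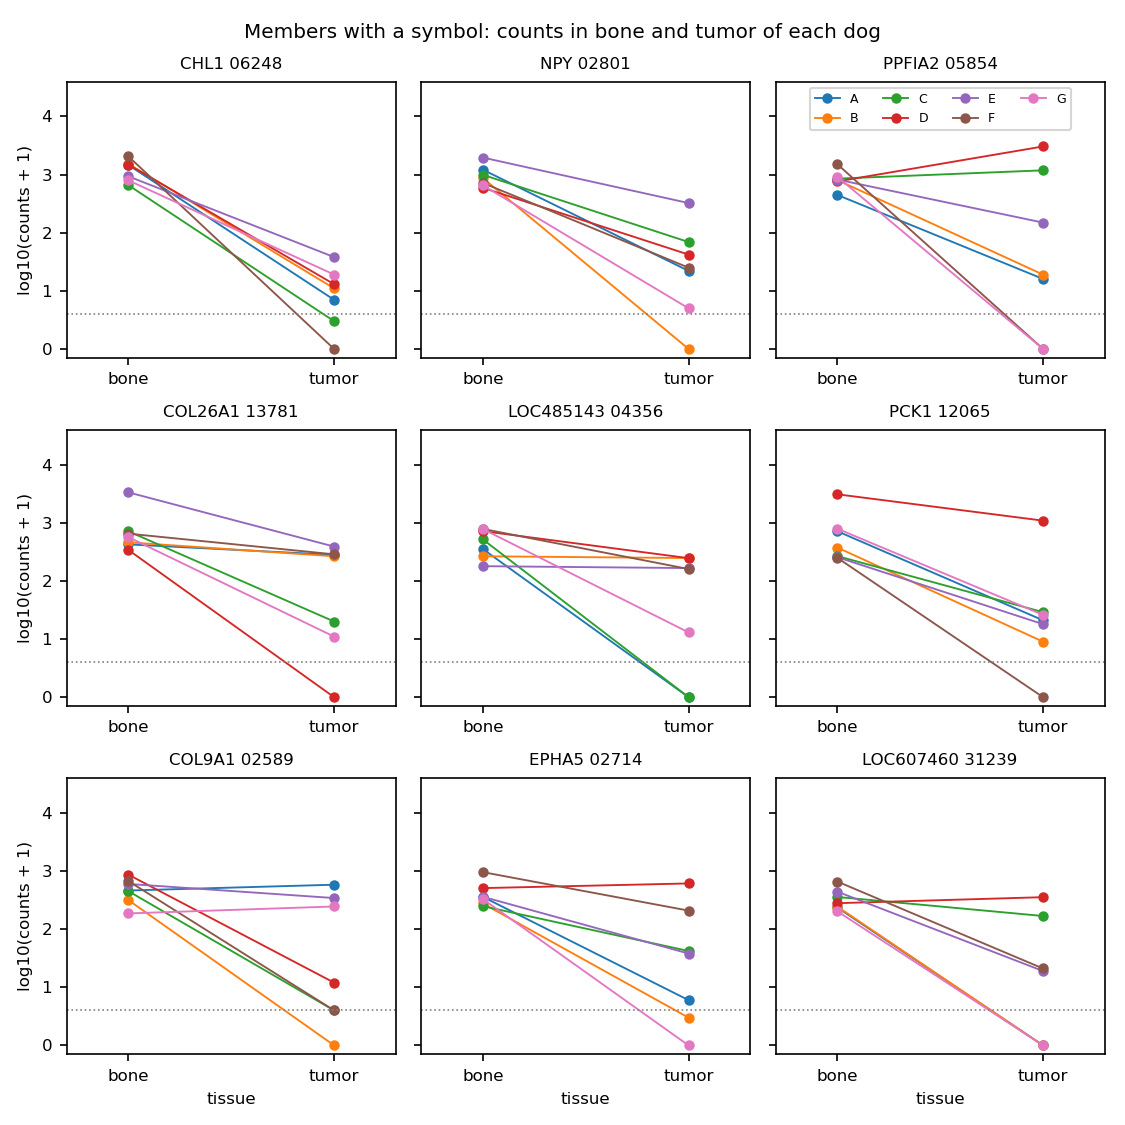
Counts in bone and tumor of the 9 genes with a symbol, as log10(counts + 1), with a line for each dog; the dotted line marks 3 counts, and LOC607460 is shown by its row ENSCAFG00000031239. CHL1 and NPY are low in all 7 tumors, whereas PPFIA2, COL9A1 and EPHA5 span the range from 0 to bone level.

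PCK1 (ENSCAFG00000012065), the cytosolic phosphoenolpyruvate carboxykinase, which makes glucose precursors and in fat cells supplies glycerol for triglyceride, was absent from the tumor of dog F. Bone held 94.4 CPM in dog D and between 7.4 and 23.3 CPM in the other 6 (median of all 7, 16.6). In tumor, dogs A to G had 20, 8, 28, 1086, 17, 0 and 25 counts. Dog D thus had the highest level in both tissues, with 42.7 CPM in tumor. Adipocyte markers (PLIN1, LEP, FABP4, CIDEC and LPL, 5 of 6 paired) were also highest in dog D, with a sum of 3168 CPM in bone against 309 to 1264 CPM in the others. In tumor they summed to 251 CPM in dog D and to between 47.8 and 79 CPM in the others. The part of fat cells in the level of PCK1 was not tested. In the tumor of dog F, which lacked PCK1, they summed to 75.7 CPM, of which LPL, a lipase also made by other cells, gave 72.7 CPM. FABP4, a fatty acid carrier abundant in fat cells, was at 0.343 CPM there and at 14 to 131 CPM in the other tumors, whereas PLIN1, LEP and CIDEC were not lowest in that tumor. No paired adipocyte marker was at 0 in any tumor.

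LOC607460, listed as a pancreatic alpha-amylase, a starch-cleaving enzyme, took 2 of the 27 rows. ENSCAFG00000031239 held 5.91 to 20.4 CPM in bone (median 10.8) and ENSCAFG00000030588 held 5.82 to 20.1 CPM (median 9.88). Both rows had 0 counts in the tumors of dogs A, B and G. The tumors of dogs C to F had 167, 353, 18 and 20 counts in ENSCAFG00000031239 and 146, 332, 18 and 19 in ENSCAFG00000030588. The rows moved together, with a ratio of their counts between 1 and 1.19 in the 11 libraries with counts. Another row of the same symbol, ENSCAFG00000028506, was under the CPM limit and was also at 0 counts in the tumors of dogs A, B and G and in no other library. Since near-identical copies can share reads, the counts of each row are uncertain, and the 27 rows stand for at most 26 distinct genes.

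LOC485143 (ENSCAFG00000004356), listed as a tripartite motif-containing protein 64, a member of a large family of ubiquitin ligases, was absent from the tumors of dogs A and C. Bone held 5.16 to 24.3 CPM (median 17.6). Tumors of dogs B, D, E and F lay between 5.02 and 9.62 CPM, and that of dog G held 12 counts (0.381 CPM). The tumors of dogs B, D and F lay inside the range of bone. At the level of dog G, 7.11 to 8.76 counts would have been reached in dogs C and A.

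The genes beside the named ones could be followed in few places. In the RefSeq order of genes on the dog assembly UU_Cfam_GSD_1.0, a different assembly from that of the counts, the 9 symbols had 18 immediate neighbours, of which 1, FOLH1B (ENSCAFG00000024888), could be paired with an identifier. FOLH1B, a gene of the folate hydrolase family next to LOC485143, had 61 and 154 counts in the tumors of dogs A and C, where LOC485143 had 0. Its lowest tumor was that of dog G, with 29 counts. In edgeR's quasi-likelihood test over all 27655 genes with at least 1 count, FOLH1B was not called, with a log2 fold change of tumor over bone of -1.73 (FDR = 0.0877); it was called without dog B and by the DESeq2 Wald test. ACSS3 (ENSCAFG00000005820), a mitochondrial acyl-CoA synthetase 1 gene model away from PPFIA2, had 316 counts in the tumor of dog F and 628 in that of dog G, the 2 tumors without PPFIA2. Its lowest tumor was that of dog A, at 8.23 CPM, and its log2 fold change in the edgeR test was -0.89 (FDR = 0.0669). Both genes thus had counts in the tumors that lacked their neighbour. Up to 20 gene models away, 9 neighbours of 6 named genes could be paired, and 1 of them was at 0 counts in a tumor that lacked the gene beside it. This was UPK3B (ENSCAFG00000013651), 19 models from COL26A1, with 0 counts in the tumor of dog D and also in those of dogs C and E, where COL26A1 had counts. UPK3B was low throughout, with a median of 2.05 CPM in bone, 0 counts in the bone of dog E and at most 0.54 CPM in the tumors. By the edgeR test, 1 of the 9 was called lower in tumor, CRBN near CHL1 (log2 fold change -0.86, FDR = 0.036), and 5 were called higher, IGF2BP3 and CYCS near NPY, PLOD3 near COL26A1, CHORDC1 near LOC485143 and COL11A1 near LOC607460. Over all genes tested, 2.14% were called lower and 1.76% higher, but symbols were paired mainly for genes the study called, so the neighbours that could be followed are not a fair sample.

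Among the 17 genes without a symbol, 9 had an all-or-none form: every library held either 0 counts or at least 117. This grouping was made after the values were seen. The 9 genes accounted for 13 of the 39 absences, 5 of them in the tumor of dog C, 3 in that of dog A, 2 in that of dog E and 0 in that of dog F. At the lowest CPM among the tumors with counts, each absent library would have held over 100 counts, as the grouping nearly requires. Their function is not given in the sources used here.

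ENSCAFG00000031632 and ENSCAFG00000004962 were absent only from the tumor of dog C. For ENSCAFG00000031632, bone held 42.5 to 124 CPM (median 87.6) and the 6 other tumors 39.1 to 66 CPM. ENSCAFG00000004962 held 23 to 67.9 CPM in bone (median 47.1) and 31.8 to 162 CPM in the other tumors, the highest being dog B. Of the tumors with counts, 3 lay just below the lowest bone for ENSCAFG00000031632 and none for ENSCAFG00000004962. At the lowest level among them, the library of dog C would have held 729 and 594 counts. ENSCAFG00000017221 was also absent only from the tumor of dog C. It had 27.4 to 139 CPM in bone (median 113) and 19.3 to 74.6 CPM in the other tumors, 3 of which lay within the range of bone and 3 below it.

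ENSCAFG00000024514 was absent from the tumors of dogs A and C. Bone held 36.4 to 95 CPM (median 69.9), and the tumors of dogs B, D, E, F and G held 35.7, 43.6, 26.5, 20.8 and 40.2 CPM. ENSCAFG00000040846 was absent from the tumors of dogs B and G, against 23.3 to 44.3 CPM in bone (median 33.9). Its other tumors, of dogs A, C, D, E and F, held 49.1, 49.8, 27.4, 17.1 and 54.7 CPM, so that 3 tumors exceeded every bone while 2 had no count.

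ENSCAFG00000009852 was absent from the tumors of dogs C, D and E, the most of any gene without a symbol. Bone held 4.26 to 14.5 CPM (median 9.63) and the tumors of dogs A, B, F and G 6.05, 5.37, 6.53 and 8.45 CPM. The bone of dog D, whose tumor lacked the gene, was the highest bone, and that of dog E the lowest. ENSCAFG00000016113 was absent only from the tumor of dog E, with 20.7 to 41.9 CPM in bone (median 34.1) and 23.3 to 35.7 CPM in the 6 other tumors. All 6 lay within the range of bone. ENSCAFG00000049746 and ENSCAFG00000012283 were both absent only from the tumor of dog A. They had 6.12 to 11.4 and 3.39 to 11 CPM in bone, and 5.99 to 14.7 and 4.41 to 12.5 CPM in the other tumors.

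**Figure D4:**
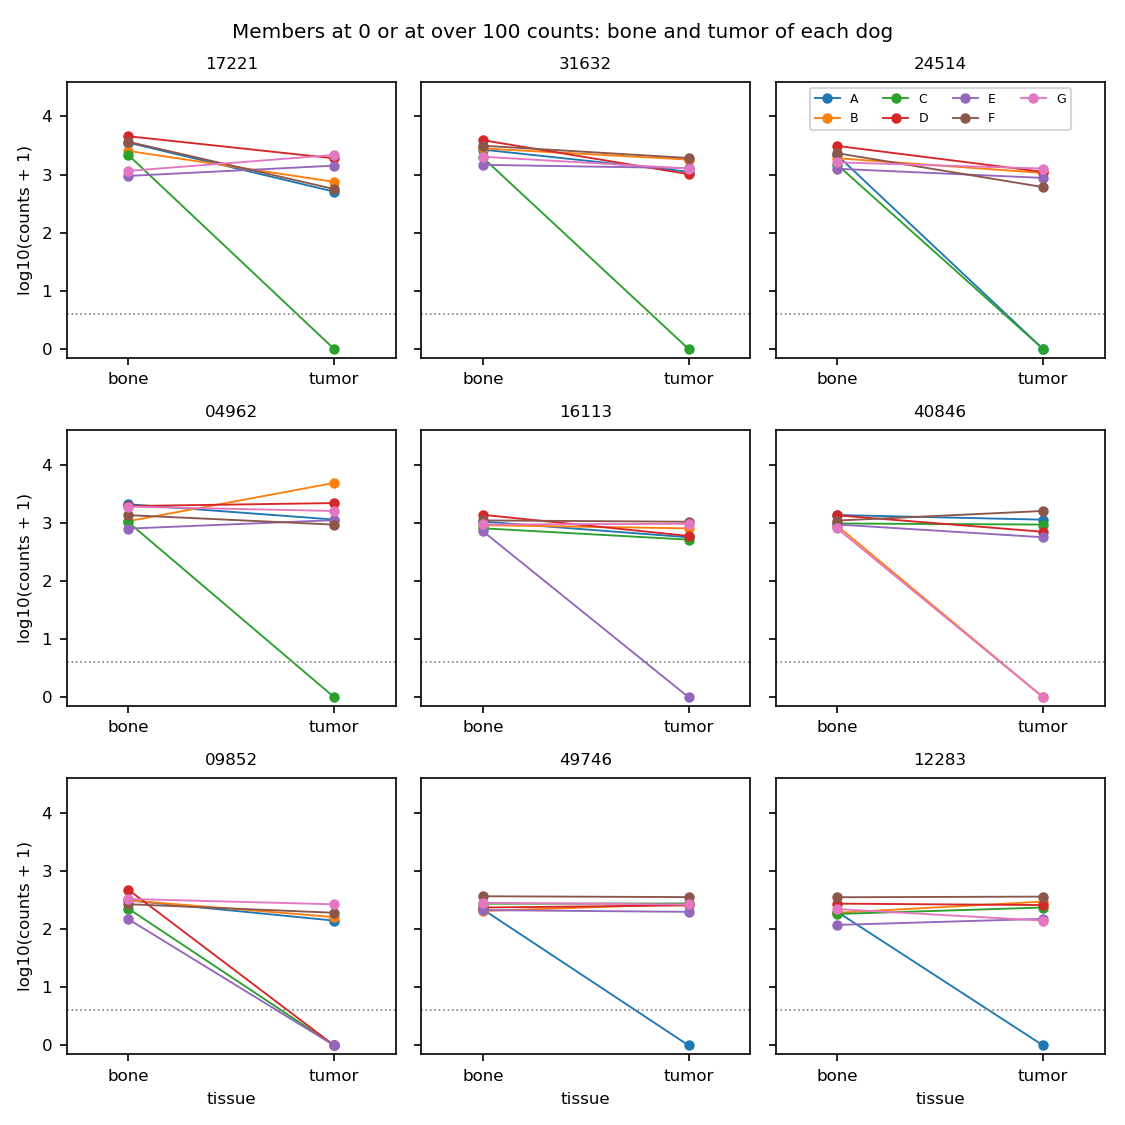
Counts in bone and tumor of the 9 all-or-none genes as log10(counts + 1), with a line for each dog and a dotted line at 3 counts. Points lie either at 0 or at 117 counts and above, with 5 of the 13 absences in the tumor of dog C.

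The same form occurred outside the 27 genes and in bone. Of the 10112 expressed genes, 57 had 0 counts in at least 1 library: the 27 genes above, 6 with counts in all tumors and 0 in at least 1 bone (0.0593%), and 24 with zeros in both tissues. Among the 57 rows, 31 were all-or-none in this sense. Of these, 9 were among the 27 genes and 20 among the 24 rows with zeros in both tissues. A symbol was found for 0 of the 31. Symbols were paired with only 2292 identifiers, mainly of genes the study called, against 27655 genes with at least 1 count, so nothing is read from this. The 31 rows had 40 zeros in bone and 69 in tumor. By dog, the 0 was in both tissues in 18 instances, in bone only in 22 and in tumor only in 51. ENSCAFG00000014422, for example, was at 0 in the bone of dog C, at 10387 to 18679 counts in the other bones and at 8612 counts in the paired tumor. Over all expressed genes, tumors had more genes at 0 than bone in 7 of 7 dogs, with 11 to 18 genes per tumor and 4 to 12 per bone; this difference was not tested, and 6 of the dogs had the deeper library in bone.

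Rows that held counts only where a gene was missing were rare. For each gene, the table was searched for rows with at least 3 CPM in every library that lacked the gene and 0 counts in every other library. The 9 genes absent from 2 or 3 tumors had 0 such rows. Of the genes absent from a single tumor, 6 had 1 row each, and these were 3 distinct rows. They were ENSCAFG00000008126 (tumor of dog A, 78 counts), ENSCAFG00000010240 (tumor of dog G, 136 counts) and ENSCAFG00000015955 (tumor of dog B, 407 counts). The search used only which libraries were at 0. Genes absent from the same single tumor therefore share its row, and a row is not matched to a particular gene. Without coordinates of the gene models, whether reads of a missing gene were counted on another model in that library was not tested.

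The 8 remaining genes without a symbol were graded, with some tumors or bones at low counts. ENSCAFG00000046399 had the highest bone level of the 27, with 52.7 to 283 CPM (median 156). Its tumors held 92.4, 217, 112, 267 and 152 CPM in dogs A to E, 0 in dog F and 12 counts (0.381 CPM) in dog G. The bone of dog F was the highest of the 7, so this instance gave the bound of at least 2743-fold. The 5 tumors at 92.4 CPM or more lay within the range of bone.

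ENSCAFG00000014049 was absent from the tumor of dog F and graded in both tissues. Bone held 7.61 CPM in dog A, 0.783 in dog E and 71.8 to 146 CPM in the other 5 (median of all 7, 91.3). Tumors held 50.2, 16.3, 0.429, 6.99, 8.82, 0 and 8.26 CPM from dog A to dog G. Dog A had more in tumor than in bone and dog E likewise, while the other 5 dogs had less. ENSCAFG00000015553 was also absent from the tumor of dog F. It held 13.3 to 84.3 CPM in bone (median 61.5) and 0.958 to 9.82 CPM in the other tumors, all below the lowest bone.

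ENSCAFG00000024644 fell into 2 levels in both tissues. Bone held 1.22 CPM in dog E, 1.43 in dog G and 32.4 to 39.5 CPM in the other 5 (median of all 7, 33.1). Tumors of dogs A, C and G held 0, 1.88 and 3.02 CPM, and the other 4 held 31 to 41.2 CPM. Low levels in both tissues were thus seen in dog G, in bone alone in dog E, and in tumor alone in dogs A and C.

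ENSCAFG00000009059 had the widest range. Bones of dogs A to G held 29.9, 20.5, 90.6, 0.582, 15.5, 2.8 and 149 CPM, and tumors of dogs A to G 963, 8.89, 0, 0, 5.75, 0.137 (4 counts) and 369 CPM. Dog D had the lowest bone, with 19 counts, and 0 in tumor, whereas dog C had 0 in tumor and the highest bone but that of dog G. At the level of dog F, 2.56 counts in dog C and 3.5 in dog D would have been reached, so the tumor of dog C was not distinguishable from that of dog F and that of dog D lay next to the limit of 3 counts.

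ENSCAFG00000030299 was absent from the tumors of dogs F and G, the pair that also lacked PPFIA2. Bone held 4.93 to 11.2 CPM (median 8.81), and the tumors of dogs A to E held 1.26, 10.5, 12.2, 1.85 and 6.08 CPM. ENSCAFG00000018117, absent from the tumor of dog F, had 1.25 to 58.9 CPM in bone (median 9.47) and 0.214 to 42.3 CPM in the other tumors, with 4 counts in dog C. Dog E had the lowest bone and the highest tumor of this gene.

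ENSCAFG00000045325 was low in both tissues of both Greyhounds. Bone held 8 counts in dog D and 2 in dog G, against 178 to 673 counts in the other 5 dogs, and tumor held 0 in dog D and 1 in dog G, against 171 to 459 counts. It was the gene closest to the limit of at least 1 count in every bone, and its tumor of dog D was at least 2.08-fold below its paired bone, the smallest bound of the 39. The 4 Greyhound libraries held at most 0.245 CPM and the other 10 at least 5.16 CPM. A search over all 21 pairs of dogs for expressed genes at least 10-fold lower in the 4 libraries of the pair than in each of the other 10 found 3 rows. The other two were ENSCAFG00000049700, also low in dogs D and G (3 and 0 counts in bone, 0 and 2 in tumor, 305 to 1777 elsewhere), and ENSCAFG00000009673, at 0 counts in both tissues of dogs A and C. No row of this kind was found for the 2 Golden Retrievers. The search was made after these values were seen, and breed cannot be told apart from other differences between dogs D and G and the rest.

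**Figure D5:**
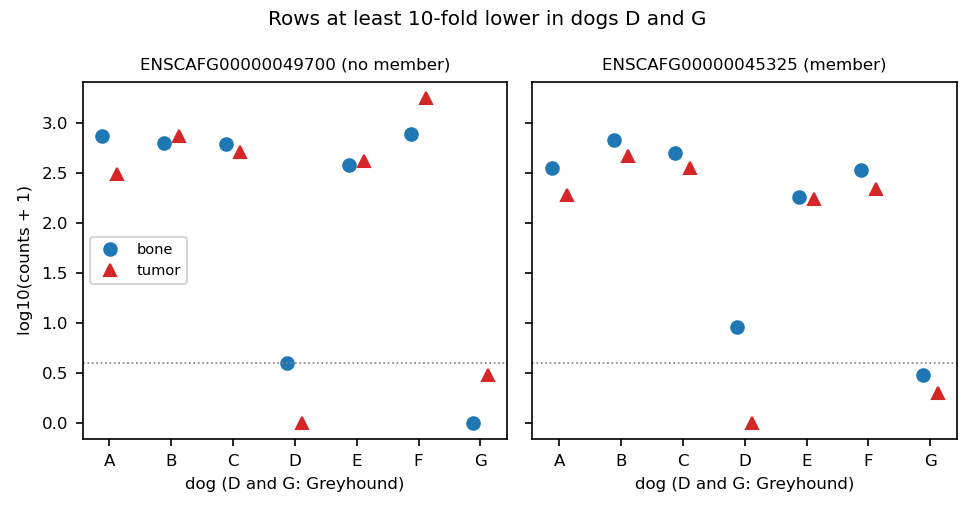
Counts of the 2 rows that were at least 10-fold lower in dogs D and G, as log10(counts + 1) by dog, with circles for bone, triangles for tumor and a dotted line at 3 counts. The 4 Greyhound libraries hold 0 to 8 counts, and the other 10 libraries 171 or more.

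The values next to the limit were close on either side. Just inside were ENSCAFG00000009852 with a median of 7.08 CPM, ENSCAFG00000012283 with 7.4 CPM and ENSCAFG00000030299 with 7.54 CPM. Just outside were ENSCAFG00000046215 (6.85 CPM, 0 counts in the tumor of dog G), OSCAR (ENSCAFG00000024209, 6.67 CPM, 0 in that of dog F) and ENSCAFG00000001066 (6.67 CPM, 0 in that of dog E). OSCAR is a receptor of osteoclasts, the cells that resorb bone. The summed osteoclast markers (CTSK, ACP5, MMP9 and OCSTAMP, 4 of 5 paired) were at 254 CPM in the tumor of dog F and at 949 to 26336 CPM in the other tumors; their part in the absence of OSCAR was not tested.

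In the edgeR test of tumor against bone, 592 of 27655 genes (2.14%) were called lower in tumor at an FDR under 0.05. Among the 27 genes, 3 were called lower, CHL1, NPY and PCK1, and 0 higher. The choice of genes used this contrast, so nothing is read from that count. The other 24, including all genes near the bone level elsewhere, were not called, although each had at least 1 tumor without a count. Without dog D, 6 of the 27 were called lower, and the DESeq2 Wald test called 11; without the dog as a block, PCK1 was not called and ENSCAFG00000015553 was.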

How the data were processed

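RNA was sequenced from bone and tumor of 7 dogs. The authors trimmed reads with Trimmomatic (0.39 in the submitters' processing notes), mapped them with HISAT2 2.2.1 to CanFam3.1 (Ensembl annotation) and counted them per gene with StringTie 1.3.3. The deposited values are raw counts per gene without normalization; strand and multi-mapping settings are not given in the sources used here, so overlapping and near-identical genes are uncertain. Columns were assigned to libraries by their names. CPM was computed from column totals (Python 3.11.15, pandas 2.3.3). The 27 genes follow from the thresholds on CPM and counts stated above, and all of them are named. The members, marker lists and thresholds were chosen with earlier results of these data known. Values are given for each library or as lowest, median and highest; the 3 rows just outside the limit, neighbours and copies are named beside them. Symbols were paired with 2292 identifiers through the study's supplementary tables, in the rows held, which list mainly genes the study called; other identifiers stayed unnamed. Some paired markers are not reported here. RefSeq gene order (UU_Cfam_GSD_1.0) gave neighbours only; no coordinates were used and no sequence is shown.

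Tumor was compared with bone by edgeR 4.0.16 (R 4.3.3, quasi-likelihood test, TMM, design of dog plus tissue) on the 27655 genes with at least 1 count, with Benjamini-Hochberg FDR; the script was tested on simulated counts. Dog was a term because each animal gave both tissues; deviations from tissue means over 15587 genes correlated at 0.0741 to 0.163 within dogs, against a median of -0.0174 between dogs. With 1 library per tissue and dog, p-values measure biological and technical spread together. Alternatives were other CPM limits, TMM library sizes, a limit of 3 counts for absence, 10 counts in bone, DESeq2 1.42.0, RLE scaling, filterByExpr, no dog term, and omission of each dog.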

Additional observations from a re-analysis of the deposited data

Results flagged for a closer look

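Of 57 sets of 7 values tested with Dixon's criterion, 12 had a library farther from the rest than the 95% limit. Chance flags about 1 in 20 sets, a rate that does not hold here because the genes were chosen on these values. Among bones these were COL26A1 in dog E (96.6 CPM, against 10.4 to 24.3 in the others), PCK1 in dog D (94.4 CPM, against 7.4 to 23.3), EPHA5 in dog F (29.7 CPM, against 8.43 to 15.5) and the LOC607460 row ENSCAFG00000030588 in dog F (20.1 CPM, against 5.82 to 12), the last barely over the limit. High tumors were PCK1 in dog D (42.7 CPM, against 0 to 1.5), EPHA5 in dog D (23.9 CPM, against 0 to 7.11), NPY in dog E (9.79 CPM, against 0 to 3.65), COL9A1 in dog A (25.2 CPM, against 0 to 10.4), ENSCAFG00000009059 in dog A (963 CPM, against 0 to 369) and ENSCAFG00000014049 in dog A (50.2 CPM, against 0 to 16.3). Low tumors were ENSCAFG00000031632 in dog C (0 CPM, against 39.1 to 66) and ENSCAFG00000016113 in dog E (0 CPM, against 23.3 to 35.7). Dog D was the highest library in both tissues for PCK1.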

How the results depend on the processing

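The number of genes was 42 at a median of 5 CPM and 16 at 10 CPM; it was 30 with TMM library sizes, 33 when up to 3 counts meant absence and 26 with 10 counts required in every bone, and 20 to 34 without single dogs. With TMM sizes, 25 of the 27 genes were kept. The 39 instances became 20 at 10 CPM, and 25 to 49 without single dogs, with 25 without dog C and 25 without dog D. Genes absent from single bones numbered 6 and were 3 to 8 without single dogs, with 3 without dog E. The 13 genes near the bone level elsewhere were 23 at 5 CPM, 7 at 10 CPM and 11 to 18 without single dogs. Genes called between tumor and bone numbered 1079, 3762 with the DESeq2 Wald test, 1599 without the replicate block for dog, and 586 to 813 without single dogs (586 without B, 690 without D, 658 without F, 646 without G); these fits have fewer samples. Of the 3 calls among the 27 genes, 2 were shared without the block, where PCK1 was not called and ENSCAFG00000015553 was; 3 were shared with RLE scaling, filterByExpr and each dog left out. The neighbour FOLH1B, not called, gave 1 call with the DESeq2 Wald test and 0 to 1 without single dogs (1 without dog B). The cause was not tested. Depth limits 3 of the 39 absences, which would have held 3 counts or fewer at the lowest level among the other tumors; at the median level of those tumors, 0 would have.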
